A study of Mus musculus with 14 samples.

Results

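Peritoneal cells of mice given SMD at 200 mg/kg before a lipopolysaccharide (LPS) challenge were compared with those of mice given 100 mg/kg before the same challenge. The comparison was defined by the sample titles and used 6 of the 14 arrays of the study, 3 per dose, and all 45037 probe sets that were not controls. Female F1 mice of the cross C57Bl/6 x C3H, 12 to 16 weeks old and kept 5 to a cage, received 50 µl of SMD solution on the nares under halothane, and 30 min later 60 µg per mouse of ultra pure LPS from Salmonella minnesota through a tail vein. Cells of both groups were harvested 2.0 h after LPS. The labels do not spell out what SMD is, do not describe a vehicle control, and do not say whether an array held RNA of 1 mouse or of a pool, so p-values measure the spread between samples called biological replicates. The other groups, used here for the spread and as points of reference, were 2 arrays of naive mice, 3 of mice given LPS without SMD (harvest time not given) and 3 of mice given 300 mg/kg SMD before LPS.

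LPS is sensed by Toll-like receptor 4 with its co-receptor CD14. One branch of that signal switches on inflammatory cytokines through NF-kB, and another induces interferon-beta, which acts back on the cells through its receptor and turns on a large set of antiviral, interferon-stimulated genes. Macrophages also lower many transcripts as they respond to LPS, and cells under chemical or proteotoxic stress induce growth-arrest genes, heat-shock proteins and thiol-protecting enzymes.

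The values are MAS5 signals, the intensity of a probe set on a linear scale after the authors' scaling of each array. Median signals of the arrays lay between 65.1 and 84.8 across the study. Macrophage markers were strong at both doses, with Adgre1 between 15879 and 23481 and Csf1r between 19588 and 28464 over the 6 arrays. B-cell transcripts were present as well in the RNA labelled as macrophage, with Bank1 between 11157 and 14788. In such bulk RNA, fewer cells of a type and less RNA per cell cannot be told apart. Log2 signals correlated at 0.925 to 0.937 between arrays within the 100 mg/kg group, at 0.928 to 0.944 within the 200 mg/kg group and at 0.905 to 0.934 between the groups. Replicate 3 at 100 mg/kg stood apart, with a correlation of 0.940 to 0.950 to the LPS arrays against 0.925 to 0.928 to its own group. RNA integrity, read from the 3'/5' signal ratio of beta-actin, was 4.33, 11.6 and 2.72 in replicates 1 to 3 at 100 mg/kg and 9.66, 9.03 and 10.7 at 200 mg/kg. The groups overlapped (log2 difference 0.93, exact two-sided permutation test p = 0.4, Benjamini-Hochberg p = 0.4 over the actin and Gapdh ratios, smallest possible p 0.1). The Gapdh ratio was 41.7 ± 28.5 at 100 mg/kg and 89.1 ± 23.9 at 200 mg/kg (SD, n = 3), overlapping in replicate 2 at 100 mg/kg (log2 difference 1.27, exact two-sided permutation test p = 0.2, Benjamini-Hochberg p = 0.4). The part of RNA integrity in the differences between doses was not tested beyond the fits with these ratios as a covariate.

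More probe sets passed the test as higher than as lower at 200 mg/kg. Of 27022 probe sets bright enough to be tested, 304 (1.13%) passed at an adjusted p under 0.05 (limma with Benjamini-Hochberg adjustment), 213 (0.788%) higher and 91 (0.337%) lower at 200 mg/kg. The increases had a median of 1.00 on the log2 scale and reached 3.41, and the decreases had a median of -1.16 and reached -2.68, while the median over all tested probe sets was -0.038. Counted by gene, with the brightest probe set standing for each of 12817 genes, 170 passed (1.33%), 132 (1.03%) higher and 38 (0.296%) lower. With the mean over each gene's tested probe sets in its place 66 passed, 45 higher and 21 lower. At an unadjusted p under 0.05 by limma the probe sets split almost evenly, 2001 higher and 1978 lower. By the brightest probe set, 1161 genes (9.06%) were higher and 813 (6.34%) lower at that level. In the 304 passing probe sets the 3 arrays of one dose lay wholly beyond those of the other, as did the arrays of 12.0% (higher) and 8.99% (lower) of all tested genes. The plot of all genes shows the passing ones spread over the range of signal.

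**Figure D1:**
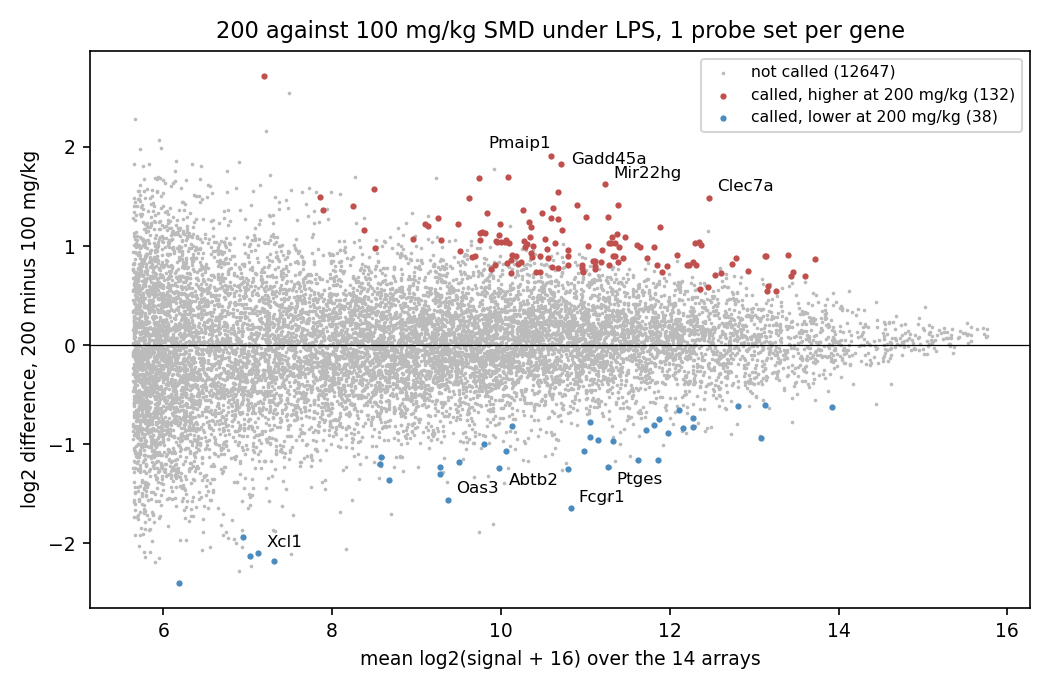
Log2 difference between 200 and 100 mg/kg (vertical axis) against the mean log2(signal + 16) over the 14 arrays (horizontal axis), 1 point per gene by its brightest probe set. Red points are the 132 genes that passed the test as higher at 200 mg/kg, blue points the 38 that passed as lower, and grey points the rest.

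The number of calls rested on single arrays. Without 200 mg/kg replicate 1 it was 8, without 200 mg/kg replicate 2 it was 17, without 100 mg/kg replicate 1 it was 41, and without 100 mg/kg replicate 3 it was 137. Leaving out either naive array gave 139. Leaving out LPS replicate 2 gave 141 decreases, and leaving out 200 mg/kg replicate 3 gave 55. The 304 probe sets kept the sign of their difference in each of these fits. With the Gapdh 3'/5' ratio as a covariate 111 passed, and with that of actin 221, of which 50 were decreases.

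The dose difference ran against the response to LPS. Of the 213 probe sets higher at 200 than at 100 mg/kg, 146 (68.5%) were lower in the LPS group than in naive mice and 8 were higher, each at an adjusted p under 0.05 in the same limma fit. Of the 91 lower at 200 mg/kg, 55 (60.4%) were higher in LPS than in naive mice and 6 were lower. Over all tested probe sets LPS lowered 16.8% and raised 10.3%. The median LPS response was -1.15 on the log2 scale among the increases, 1.03 among the decreases and -0.24 over all. The group means of LPS and naive mice rest on none of the 6 arrays of the dose comparison, but the fit shares its spread and its filter with them. Without 100 mg/kg replicate 3 the counts were 66 of 111 and 17 of 26, without 100 mg/kg replicate 1 they were 22 of 35 and 5 of 6, without 200 mg/kg replicate 2 they were 8 of 14 and 2 of 3, and without 200 mg/kg replicate 1 they were 2 of 6 and 2 of 2.

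Among passing genes whose signal reached the median of the tested probe sets, the largest increase was in Pmaip1 (Noxa), a BH3-only protein that promotes apoptosis. Its signal was 607, 568 and 841 in the 3 arrays at 100 mg/kg and 3124, 3355 and 1537 at 200 mg/kg. Every array at 200 mg/kg lay above every array at 100 mg/kg, and replicate 3 was the lowest of its group. The log2 difference was 1.91 ± 0.25 (limma's standard error, n = 3 per group), a 3.75-fold rise on the log2(signal + 16) scale, with an adjusted p of 0.00273. Mean signals were 875 in naive mice, 853 after LPS alone and 5498 at 300 mg/kg, and of the SMD groups the 200 and 300 mg/kg means lay above the naive one.

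Gadd45a, which encodes a growth arrest and DNA damage inducible protein, followed with signals of 894, 1455 and 546 at 100 mg/kg and 3846, 3804 and 2252 at 200 mg/kg. Its arrays did not overlap between the doses, and its log2 difference was 1.82 ± 0.30 (adjusted p = 0.00898). Sesn1, a sestrin that restrains growth signalling under stress, had signals of 711, 939 and 959 at 100 mg/kg and 2454, 2492 and 1605 at 200 mg/kg. It rose by 1.30 ± 0.21 (adjusted p = 0.00789), and 2 of its 4 tested probe sets passed. Pmaip1 was the 1 member of 17 in an apoptosis and BCL2-family list that passed (1.33% of all genes did). In that list 3 members were higher and 2 lower at an unadjusted p under 0.05, among the lower Bbc3 (-1.06, adjusted p = 0.278). Gadd45a and Sesn1 are 2 of 15 tested genes in a list of p53 targets and growth-arrest genes. The list's median difference was 0.55, against 0.0025 over all genes, and 6 of the 15 had non-overlapping arrays with the higher values at 200 mg/kg (12.0% of all genes did). The same number had an unadjusted p under 0.05 with the higher level at 200 mg/kg (9.06% of all genes). Plk2, a kinase of the p53 response, gave 2898, 2803 and 2670 against 4230, 4648 and 4119 (adjusted p = 0.0922). Cdkn1a, the p21 inhibitor of cyclin-dependent kinases and a central p53 target, gave 663, 1151 and 1241 against 1203, 1251 and 1107, which overlapped (adjusted p = 0.677). Mdm2, the p53 ubiquitin ligase, differed by 0.21 (adjusted p = 0.606).

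Mir22hg, the host transcript of the microRNA miR-22, was among the most reproducible increases. Its signal was 1344, 1545 and 1216 at 100 mg/kg and 4045, 4389 and 4253 at 200 mg/kg, a log2 difference of 1.62 ± 0.21 (adjusted p = 0.00273). The spread within either dose was small beside the gap between them. Mature miR-22 was not measured on these arrays. Pmaip1, Mir22hg and the decreased gene Abtb2 were the 3 of 33 named genes with a call that kept it under all 27 other settings tried. In contrast, 3 of the 33 still passed without 200 mg/kg replicate 1, 4 without 200 mg/kg replicate 2, 9 without 100 mg/kg replicate 1 and 14 without 100 mg/kg replicate 3.

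Several of the other large increases were in genes that LPS had lowered far below the naive level. Rassf3, a Ras-association domain protein, averaged 3356 in naive mice and 243 after LPS. Its arrays read 351, 258 and 330 at 100 mg/kg and 1168, 1489 and 638 at 200 mg/kg, a difference of 1.69 ± 0.26 (adjusted p = 0.00664). Diras2, a small GTPase of the Ras family, averaged 5327 in naive mice and 998 after LPS, and read 527, 438 and 802 against 1882, 2203 and 1167 (1.54 ± 0.25, adjusted p = 0.00898). In both genes the arrays of the doses were apart and those at 200 mg/kg remained below the naive mean. Ints6l, related to a subunit of the Integrator complex, rose from 339, 375 and 301 to 1044, 881 and 989 (1.48 ± 0.21, adjusted p = 0.00556), with a naive mean of 3124. Mical1, a flavoprotein that oxidises actin, read 165, 185 and 90.8 against 588, 378 and 415 (1.57 ± 0.34, adjusted p = 0.0316), with a naive mean of 1126. Slc5a3, the sodium and myo-inositol transporter, read 82.8, 149.8 and 64.7 against 227, 247 and 450 (2.82-fold on the log2(signal + 16) scale, adjusted p = 0.0444). Of 27 other settings the call was lost in 16 for Slc5a3, 11 for Mical1, 4 for Diras2, 3 for Rassf3 and 2 for Ints6l. Not every probe set of these genes passed, with 1 of 3 for Rassf3 and 1 of 2 for Diras2, Ints6l and Mical1. With the mean over a gene's probe sets none of these 4 was called, at 1.15 for Rassf3 (adjusted p = 0.0571 by limma), 1.10 for Mical1, 0.94 for Ints6l and 0.40 for Diras2, of which Diras2 alone had probe sets of both signs.

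Clec7a, Cd80 and Arg1 were also among the increases. Clec7a (Dectin-1), the receptor for fungal beta-glucan, read 3856, 4409 and 1600 at 100 mg/kg and 10135, 9787 and 6123 at 200 mg/kg. Its difference was 1.49 ± 0.30 (adjusted p = 0.0248), and the call was lost without either 200 mg/kg replicate 1 or 2 or without 100 mg/kg replicate 1 or 3. Cd80, a costimulatory ligand for T cells, read 1502, 1425 and 600.2 against 3359, 3308 and 2110 (1.38 ± 0.28, adjusted p = 0.0256), by the brightest of 3 probe sets, the others not passing. Its call was lost in 7 of 27 other settings, the mean over its probe sets among them, with a difference as low as 0.36. Of 20 tested antigen-presentation and costimulation genes, 2 were higher and 7 lower at an unadjusted p under 0.05 (9.06% and 6.34% of all genes). Arg1, the arginase that competes with nitric oxide synthase for arginine, read 947, 470.2 and 463 against 2430, 2197 and 1405 (1.70 ± 0.30, adjusted p = 0.0107). In all 3 genes replicate 3 was the lowest array at 200 mg/kg and, for Clec7a and Cd80, by far the lowest at 100 mg/kg. Nos2, the inducible nitric oxide synthase, fell under the limit on dim probe sets, its signals reaching from 3.1 to 41.9 over the 14 arrays.

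**Figure D2:**
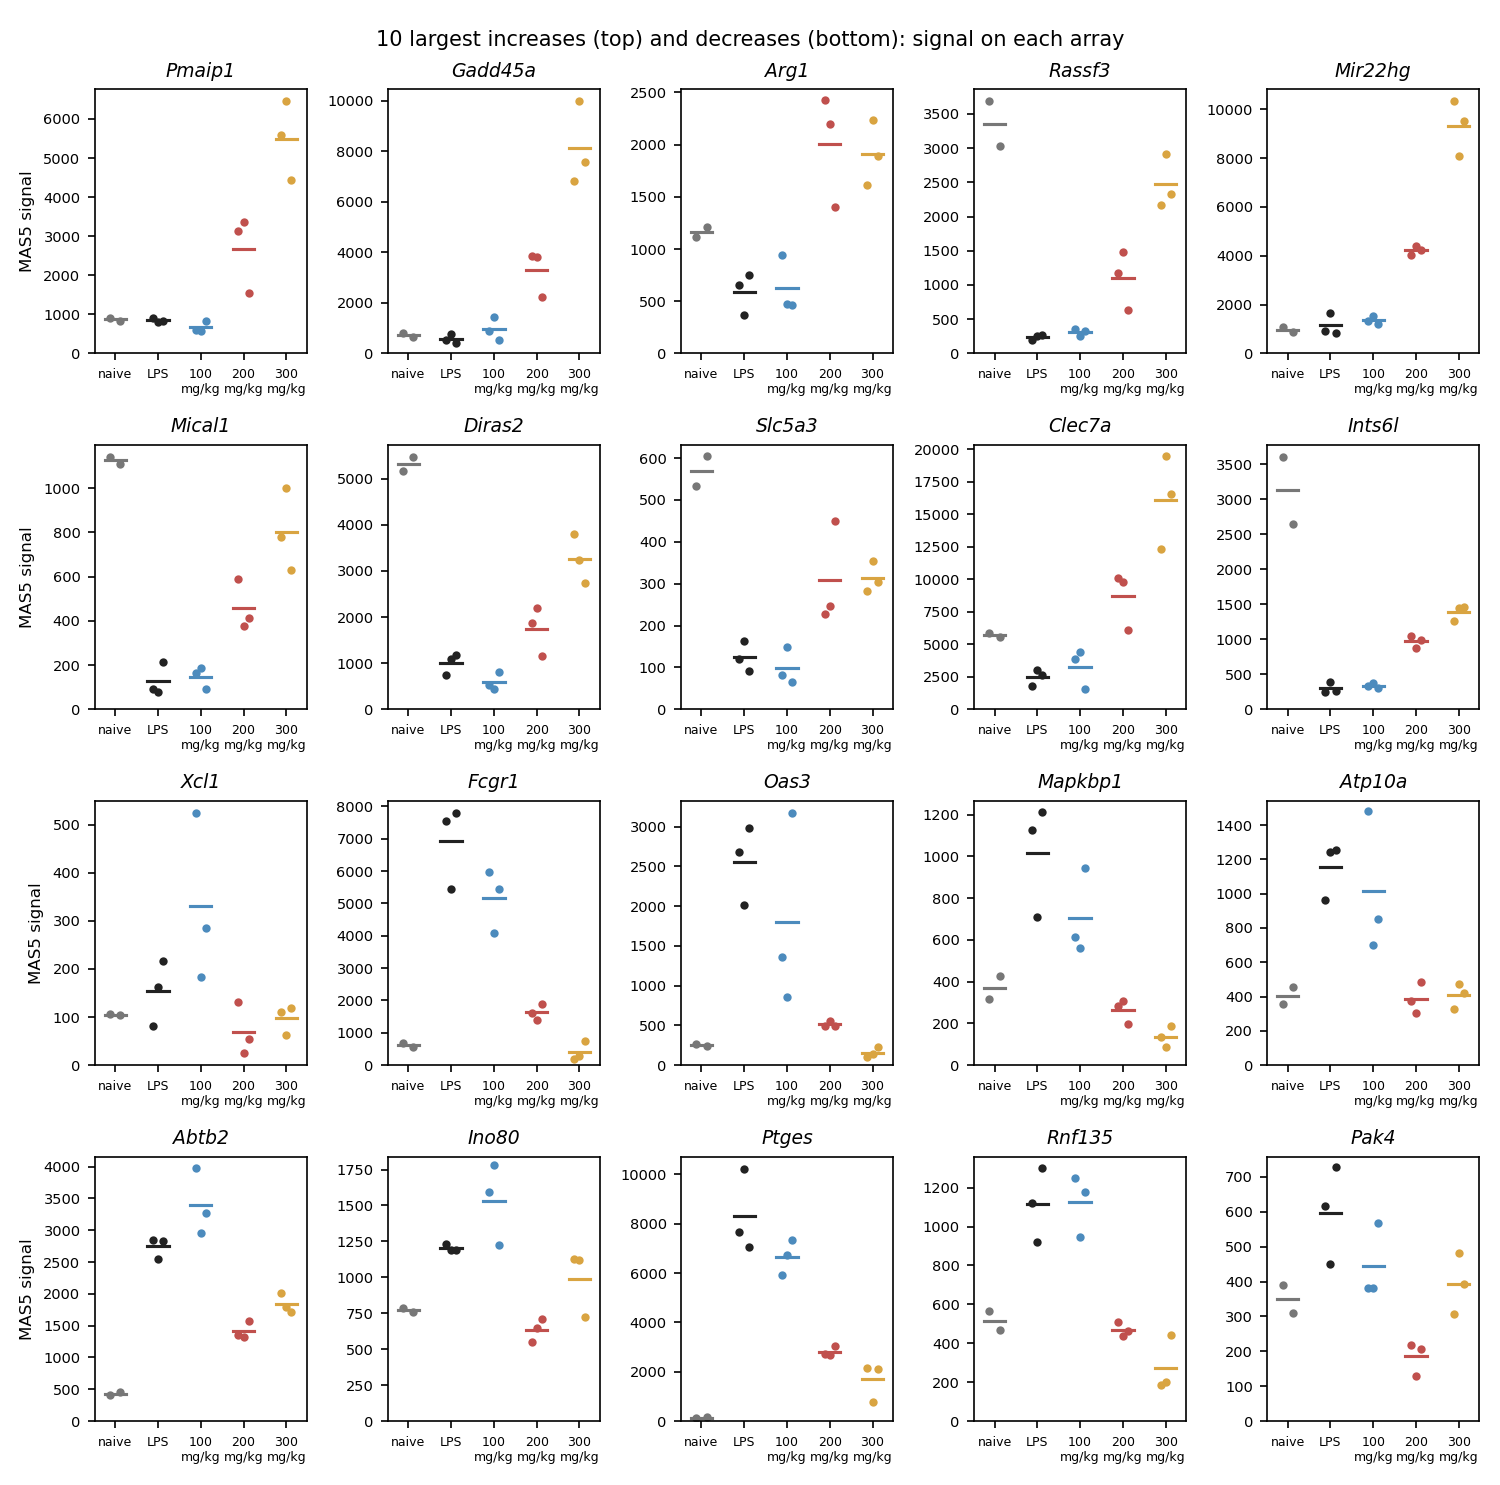
MAS5 signal on each of the 14 arrays (points) and group means (bars) for the 10 largest increases (upper panels, Pmaip1 to Ints6l) and the 10 largest decreases (lower panels, Xcl1 to Pak4) between 100 and 200 mg/kg among passing genes at or above the median signal, with the naive, LPS and 300 mg/kg groups for reference. For every gene the red points (200 mg/kg) lie wholly above or wholly below the blue points (100 mg/kg), a condition of the choice.

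Among the decreases, Fcgr1 stood out as a strong and LPS-induced transcript. It encodes the high-affinity receptor for IgG on macrophages and is itself induced by interferon. Its signal was 5975, 4089 and 5455 at 100 mg/kg and 1621, 1402 and 1894 at 200 mg/kg, with means of 629.9 in naive mice, 6931 after LPS and 418 at 300 mg/kg. The doses did not overlap, and the fall of 1.64 ± 0.32 on the log2 scale (adjusted p = 0.0195) was seen in its other probe set too, which fell by 1.46 (adjusted p = 0.0474). The call was lost without any one of 100 mg/kg replicates 1 and 3 and 200 mg/kg replicates 1 and 2.

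Ptges, the inducible prostaglandin E synthase that acts downstream of cyclooxygenase 2, read 5916, 6720.0 and 7338 at 100 mg/kg and 2726, 2683 and 3047 at 200 mg/kg. It fell by 1.23 ± 0.28 on the log2 scale (adjusted p = 0.0444), and its LPS mean was 8321 against 139 in naive mice. Ptgs2, which encodes cyclooxygenase 2 itself, read 3392, 3510.4 and 1886 against 3464, 2714 and 4761, overlapping (0.33, adjusted p = 0.614). Of 21 tested prostaglandin and leukotriene genes Ptges alone passed (1.33% of all genes did), and the median of the list was 0.053. The Ptges call lay close to the threshold and was lost in 16 of 27 other settings, with the difference between -1.33 and -1.16 throughout.

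Abtb2, an ankyrin-repeat and BTB-domain protein, kept its call in all settings, with signals of 3978, 2954 and 3267 against 1352, 1323 and 1580 (fell by 1.25 ± 0.17, adjusted p = 0.00273). LPS had raised it from a mean of 428 to 2746. Maf, a transcription factor of the AP-1 superfamily that supports Il10 expression in macrophages, read 5578, 5225 and 5681 against 2398, 2190.4 and 2785 (fell by 1.16 ± 0.18, adjusted p = 0.00664). Both genes were tight within each dose, but only 1 of 5 Maf probe sets passed. Ino80, the ATPase of a chromatin remodeller, fell by 1.24 (adjusted p = 0.0107), and Rnf135, a ubiquitin ligase of the RIG-I pathway, by 1.23 (adjusted p = 0.0371). The remaining large decreases were those of Mapkbp1 (-1.36), Atp10a (-1.30), Pak4 (-1.19) and the dim chemokine Xcl1, which read 525, 184 and 284 against 131, 24.4 and 53.7 (adjusted p = 0.0479). Of 27 other settings the call was lost in 21 for Pak4, 18 for Xcl1, 14 for Mapkbp1, 12 for Rnf135, 7 for Atp10a, 3 for Ino80 and 3 for Maf.

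Interferon-stimulated genes lay lower at 200 than at 100 mg/kg as a group. In all 40 tested members the difference was below 0, with a median of -0.62 against 0.0025 over all genes. In 29 of the 40 the arrays of the doses did not overlap, each time with 200 mg/kg lower (8.99% of all genes), and 16 had an unadjusted p under 0.05 (6.34% of all genes were lower at that level). After adjustment over all probe sets 1 member passed, Oas3 (0.296% of all genes passed as lower). Over the other settings this count ranged from 0 to 4 (only the 6 arrays compared) and 5 (without 300 mg/kg replicate 3). It was 0 without any 1 of the 6 arrays other than 100 mg/kg replicate 2, and with either RNA ratio as a covariate. LPS had raised 38 of the 40 above the naive level in the same fit, against 10.3% of all tested probe sets. Under the other settings tried on the whole table, 39 or 40 members, or 39 of 39 with a stricter filter, were below 0, and the median lay between -0.78 (without 200 mg/kg replicate 3) and -0.55 (without 200 mg/kg replicate 2).

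Oas3, a synthetase of the 2-5A messenger that activates RNase L, read 1359, 857 and 3171 at 100 mg/kg and 493, 560 and 495 at 200 mg/kg. The 3 arrays at 200 mg/kg were alike and below the lowest at 100 mg/kg, where replicate 3 was the highest. It fell by 1.56 ± 0.36 on the log2 scale (adjusted p = 0.0453), and lost the call without 100 mg/kg replicate 3, among other single arrays. Its relatives Oas1a (11075, 8666 and 12536 against 5646, 5084 and 6894, adjusted p = 0.142) and Oas2 (2390.4, 2250 and 4558 against 1266, 1547 and 1726, adjusted p = 0.159) did not overlap between doses either. Isg20, an antiviral exonuclease, read 11111, 8234 and 13091 against 4741, 4480.4 and 6965 (adjusted p = 0.204). Irf7, the transcription factor that amplifies interferon production, read 2328, 1672 and 5086 against 1255, 1010.4 and 1341 (adjusted p = 0.249). These genes share the pattern of Oas3 without passing the test on their own.

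Other interferon-induced transcripts, named after their values were seen, did not pass. Ifit1, which binds viral RNA, read 36289, 32535 and 25172 against 27217, 23835 and 34181, overlapping (-0.14 ± 0.51, adjusted p = 0.927). Rsad2 (viperin) differed by -0.37 and Cxcl10, an interferon-induced chemokine, by -0.26 (adjusted p = 0.773 and 0.694 by limma). Among the 3 arrays at 100 mg/kg the highest value of the 40 genes fell to replicate 1 in 20 genes, replicate 3 in 18 and replicate 2 in 2, and among those at 200 mg/kg it fell to replicate 3 in 33. Ifi203 and Ifi204, the Oas1 genes, the Gbp genes and the Ifit genes belong to families of close copies, and their probe sets may share signal.

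**Figure D3:**
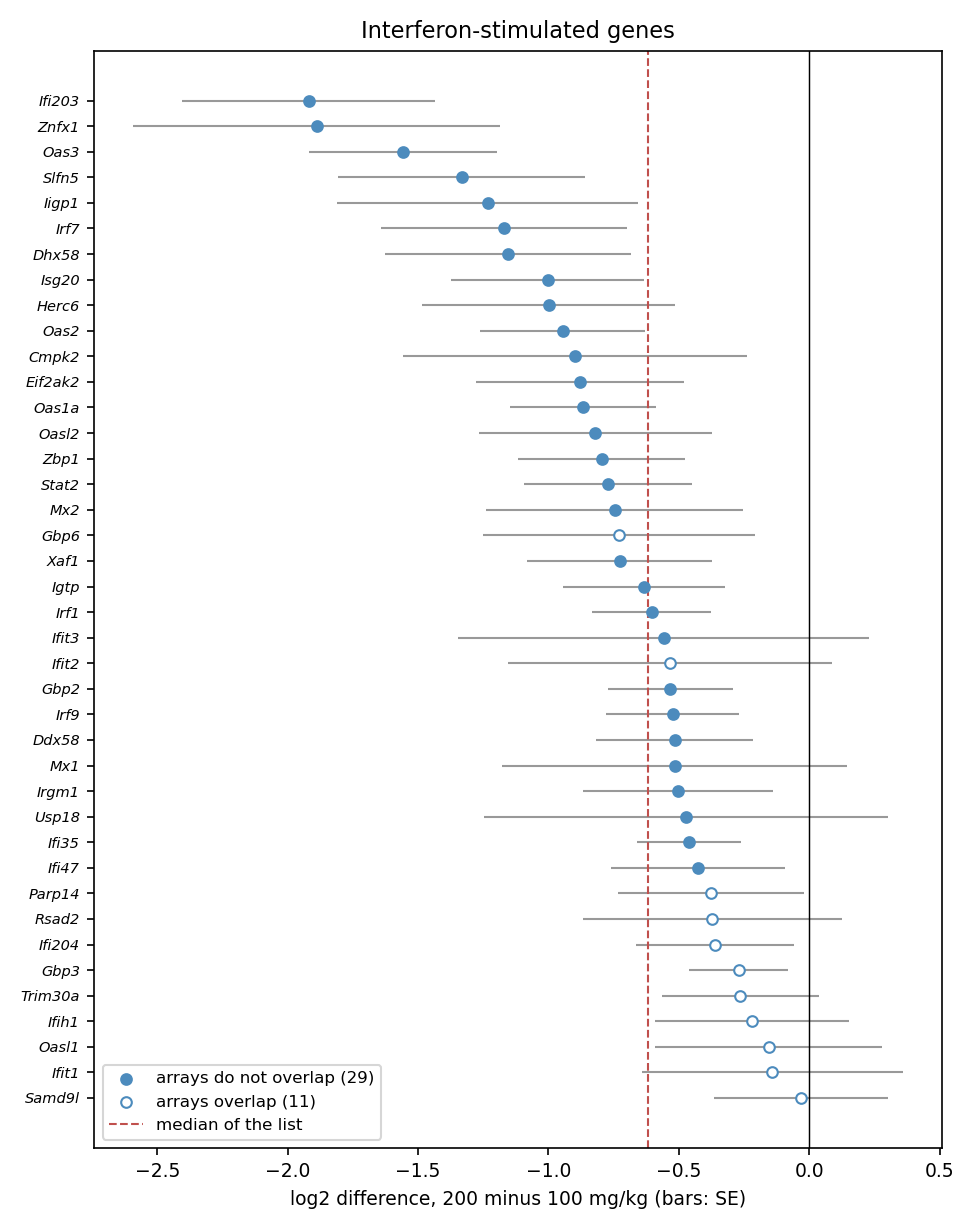
Log2 difference between 200 and 100 mg/kg for the 40 tested interferon-stimulated genes, with limma's standard error as bars (n = 3 per group). Filled points are the 29 genes whose arrays did not overlap between doses, open points the other 11, and the dashed line is the list's median of -0.62. All 40 points lie below 0.

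Promoter sequence was searched for the motif that interferon-activated factors recognise, since the differences of these genes shared a sign. The windows were RefSeq promoters of GRCm38.p6, from 250 bases before to 50 after each start, available for 30 of the 40 genes. The interferon-stimulated response element was written as GAAANNGAAA on either strand and was found in 16 of the 30 (53.3%), against 3.99% of the 27025 genes with a promoter. Of the 12 members with an unadjusted p under 0.05 and a promoter, 7 held it. The list was drawn up as interferon-stimulated genes, so its share is no measure of the dose difference. Over all tested genes with a promoter, in a list or not, 3.69% held the element. Of the 32 that passed as lower at 200 mg/kg, 2 held it (6.25%). It was held by 1 of 101 that passed as higher (0.99%). In the following stretches, which end at or before the start, capitals mark the motif. They are shown for Oas3, for its relative Oas1a, for the signal transducer Stat2 and for the GTPase Gbp2. Oas3 lies on the minus strand at chr5:120777685-120777774, Oas1a on the minus strand at chr5:120907526-120907585, Stat2 on the plus strand at chr10:128270248-128270325 and Gbp2 on the plus strand at chr3:142620564-142620653.
Oas3: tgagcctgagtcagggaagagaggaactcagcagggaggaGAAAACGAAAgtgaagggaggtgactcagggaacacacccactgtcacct
Oas1a: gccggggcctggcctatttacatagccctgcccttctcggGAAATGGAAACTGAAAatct
Stat2: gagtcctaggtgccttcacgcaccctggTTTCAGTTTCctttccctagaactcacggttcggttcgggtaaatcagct
Gbp2: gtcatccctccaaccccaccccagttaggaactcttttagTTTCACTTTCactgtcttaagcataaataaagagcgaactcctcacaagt
In Oas3 the motif starts 75 bases before the start, in Gbp2 59 and in Stat2 222, the last 2 on the opposite strand. Oas1a holds 2 overlapping copies, the first 20 bases before the start. A match is a sequence description and no evidence of binding in these cells.

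Genes of interferon production and sensing gave mixed values. Of 15 tested genes of type I interferon and its receptor signalling none passed, and the median was -0.11. Ifnb1, the interferon-beta gene, was dim, at 122, 48.8 and 23.7 against 158, 181 and 69.3, with an adjusted p of 0.372. Its arrays overlapped, and its difference of 1.02 was above 0 while those of the interferon-stimulated genes were below. Ifngr2, a chain of the interferon-gamma receptor, read 477, 381 and 416 against 188, 255 and 184 (adjusted p = 0.116), and Ikbke, a kinase upstream of interferon genes, read 1179, 1109 and 4194 against 946, 819.5 and 518 (adjusted p = 0.163). Replicate 3 at 100 mg/kg supplied the top value of Ikbke.

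The classical cytokines of the LPS response did not pass the test between the doses. Tnf read 2083, 2326 and 1963 at 100 mg/kg and 2102, 2332 and 1869 at 200 mg/kg, overlapping, with a difference of -0.018 ± 0.28 (adjusted p = 0.984) whose sign turned in 5 of 27 other settings. Il1b read 10274, 12941 and 7719 against 9708, 9456 and 9759 (-0.065, adjusted p = 0.917), and its sign turned with median scaling and without 100 mg/kg replicate 2. Il6, which LPS alone raised from a mean of 217 to 3482, read 8916, 10954 and 2998 against 15600.3, 15491 and 13389. The doses of Il6 did not overlap, and the difference of 1.15 ± 0.31 had an adjusted p of 0.0779, with replicate 3 far below the other arrays at 100 mg/kg. Without 100 mg/kg replicate 2, with the replicate number as a block or with array weights Il6 passed. Il10, the anti-inflammatory cytokine, read 649, 931 and 556 against 1380.3, 1524 and 654, overlapping in 1 array (0.67, adjusted p = 0.262).

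Of 19 tested cytokine genes none passed, 14 lay below 0 and the median was -0.26. Csf1, the growth factor of macrophages, read 2379, 1384 and 1980 against 889, 750.1 and 605 (-1.32 ± 0.34, adjusted p = 0.0653). Il15, which sustains lymphocytes and natural killer cells, read 6808, 4679 and 3928 against 1808, 1586 and 3129 (adjusted p = 0.178). Both lay wholly lower at 200 mg/kg. Of the 25 listed chemokines, which do not include Xcl1, none passed and the median was 0.054. The lowest differences in that list belonged to Cxcl9 (2890.2, 1311 and 1420 against 679, 609.9 and 977) and Cxcl11 (7808, 5426 and 5097 against 3172, 2649 and 3865), interferon-induced ligands of one receptor, with adjusted p-values of 0.248 and 0.296. The neutrophil chemokines Cxcl1 and Cxcl2 differed by 0.11 and 0.16.

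None of 19 tested genes of the LPS receptor and its signalling passed (median -0.035). Cd14 read 37828, 38522 and 38081 against 39318, 36397 and 36292 (-0.032, adjusted p = 0.92, sign turned with median scaling). Tlr4 read 1239, 1540.2 and 586 against 754, 669 and 1220.2 (-0.28, adjusted p = 0.784). Neither separated the doses. Of 15 NF-kB subunits and inhibitors 1 passed (1.33% of all genes did): Rel, which encodes c-Rel, rose from 1378, 1215 and 771 to 2458, 2262 and 1990.3 (1.02 ± 0.22, adjusted p = 0.03). Tnip1, an inhibitor of NF-kB signalling, fell by 0.61 (adjusted p = 0.0361), and Zfp36l1, a factor that destabilises cytokine transcripts, rose by 0.70 (adjusted p = 0.0488), the passing members of 20 anti-inflammatory regulators (1.33% of all genes passed). Klf2, a transcription factor that quiets macrophage activation, fell by 0.62 from 16797, 17931 and 21555 to 12162, 12131 and 12012 (adjusted p = 0.0248). These 4 genes lost their calls without either 200 mg/kg replicate 1 or replicate 2. Of 27 other settings the call was lost in 17 for Zfp36l1, 13 for Tnip1, 8 for Rel and 7 for Klf2. For Zfp36l1 1 of 2 probe sets passed, the mean over its probe sets was among the settings that lost the call, and the difference was as low as 0.29.

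**Figure D4:**
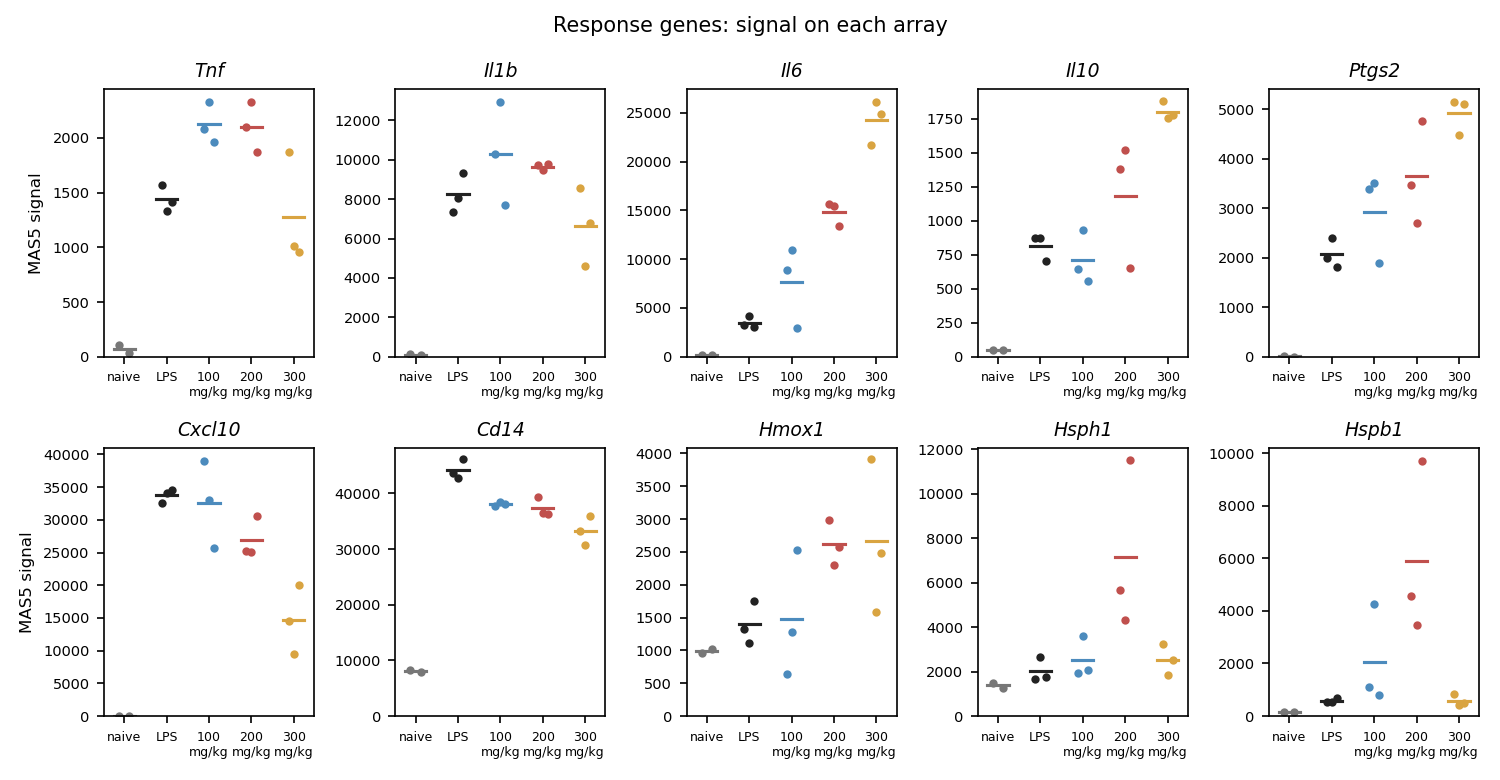
MAS5 signal on each array (points) and group means (bars) for 10 genes of the LPS and stress responses in the 5 groups. Tnf, Il1b, Cxcl10 and Cd14 overlap between 100 and 200 mg/kg, Il6 and Hsph1 do not, and the 200 mg/kg points of Hsph1 and Hspb1 include replicate 3 as the highest.

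Of 23 heat-shock proteins and co-chaperones 6 were higher and 2 lower at 200 mg/kg at an unadjusted p under 0.05 (9.06% and 6.34% of all genes). Of these Hsph1 passed after adjustment, a chaperone that recharges Hsp70 with nucleotide. It read 1960, 3589 and 2078 at 100 mg/kg and 5686, 4306 and 11535 at 200 mg/kg, and rose by 1.42 ± 0.31 (adjusted p = 0.0328), as did its other probe set (1.48, adjusted p = 0.0396). The doses did not overlap, with replicate 3 the highest at 200 mg/kg, and the call was lost without any 1 of the 6 arrays other than 100 mg/kg replicate 2, or without either naive array. At 300 mg/kg its mean was 2542, that of 100 mg/kg. Hspb1, the small heat-shock protein Hsp27, read 1088, 4278 and 801 against 4579, 3451 and 9709, overlapping in 1 array (1.77 ± 0.46, adjusted p = 0.0685), and it passed without 100 mg/kg replicate 2. The inducible Hsp70 genes Hspa1a and Hspa1b, near-identical copies, differed by 0.36 and 0.47 with adjusted p-values of 0.757 and 0.584. The median of the list was 0.13.

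The heat-shock element, written as GAANNTTCNNGAA or TTCNNGAANNTTC, was found in the promoters of 4 of 20 genes of this list (20.0%) and in 0.662% of all genes with a promoter. The list was drawn up as heat-shock genes, so its share is no measure of the dose difference. Of its 8 members with an unadjusted p under 0.05 and a promoter, 2 held the element. Over all tested genes with a promoter, the element was held by 1 of 101 that passed as higher (0.99%) and 0 of 32 that passed as lower. In Hsph1 it lies just after the start, shown here since this gene carries the list's only call, on the minus strand at chr5:149636280-149636308 of GRCm38.p6, with the motif in capitals.
Hsph1: gctgcagaTTCTGGAAAGTTCtcctcagt
The promoter window of Hspb1 held no match to these letters, nor did that of Dnajb4.

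Among 27 genes of the NRF2 and thiol response, which is run by the factor that Keap1 holds in check, none passed, 20 lay above 0 and 7 had non-overlapping arrays with 200 mg/kg higher (12.0% of all genes). The arrays of 2 did not overlap with 200 mg/kg lower (8.99% of all genes), among them Keap1 itself, which read 712, 571 and 1408 against 374.5, 541 and 448 (-0.86, adjusted p = 0.184). The median was 0.17. Gclm, a subunit of the enzyme that limits glutathione synthesis, read 599, 714 and 810.3 against 1378, 1009.5 and 1627 (adjusted p = 0.178). Slc7a11, the cystine importer, read 1660, 1798 and 1919 against 2787, 2645 and 4213 (adjusted p = 0.376), and Srxn1, sulfiredoxin, read 1053, 1422 and 2055 against 2515, 2662 and 2572 (adjusted p = 0.338). All 3 separated the doses without passing. Hmox1, heme oxygenase 1, read 640.4, 1274 and 2531 against 2993, 2305 and 2569, overlapping in replicate 3 at 100 mg/kg (1.02 ± 0.36, adjusted p = 0.185), and passed without that array.

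In the endoplasmic reticulum, 2 of 22 chaperone and XBP1-branch genes passed, both higher (1.03% of all genes). Eif2ak3 (PERK), a sensor kinase for unfolded protein, rose from 813, 1093 and 1612 to 2331, 2289 and 2214 (1.00 ± 0.22, adjusted p = 0.0328), a call lost in 11 of 27 other settings, the mean over its probe sets among them. Canx (calnexin), a lectin chaperone, rose by 0.55 (adjusted p = 0.0303) with tight arrays of 9119, 9173 and 9392 against 12893, 12893 and 14781, though not with the mean over its probe sets (0.20). The call of Canx was lost in 13 of 27 other settings. Calr (calreticulin), its soluble partner, differed by -0.64 (adjusted p = 0.0657). Of 26 genes of the ATF4 amino acid response none passed by the brightest probe set. Atf4 itself, a member of that list, stood at -0.42 (adjusted p = 0.253 by limma), while 1 of its 2 probe sets passed as lower. With the mean over its probe sets Atf4 passed (adjusted p = 0.0364 by limma). Of 19 aminoacyl-tRNA synthetases, which ATF4 can induce, none passed by the brightest probe set and 16 lay below 0 (median -0.22). Eprs stood at 0.20 by its brightest probe set (adjusted p = 0.618 by limma), while 2 of its 4 probe sets passed as lower.

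Calls in the other lists were single (1.33% of all genes passed). Ndufa4, a small subunit of the respiratory chain, rose by 0.73 (adjusted p = 0.0173) among 25 respiratory-chain genes with a median of 0.0069. H1f2, a linker histone, rose from 794, 1133 and 809 to 2832, 3034 and 1255 (1.28, adjusted p = 0.0296). None of 33 cell-division and DNA-replication genes passed, with a median of -0.26, and the mitotic kinase Cdk1 read 467, 281 and 334 against 119, 167 and 99.0 (adjusted p = 0.0529). None passed among 17 cytosolic ribosomal proteins (median 0.037), 26 proteasome subunits (median -0.037), 22 glucocorticoid-response genes (median 0.0028), 18 cholesterol genes (median 0.094) or 23 genes of glycolysis and the hypoxia response (median 0.10). At an unadjusted p under 0.05, 0 proteasome subunits were higher and 6 lower (9.06% and 6.34% of all genes). The counts were 4 and 2 for glucocorticoid-response genes and 5 and 1 for glycolysis and hypoxia genes. The immunoproteasome genes Psmb8 and Psmb9, which interferon induces, differed by -0.64 and -0.85 (adjusted p = 0.101 and 0.0622 by limma), with all 3 arrays at 200 mg/kg lower. With the mean over its probe sets Psmb8 passed (adjusted p = 0.0364 by limma).

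**Figure D5:**
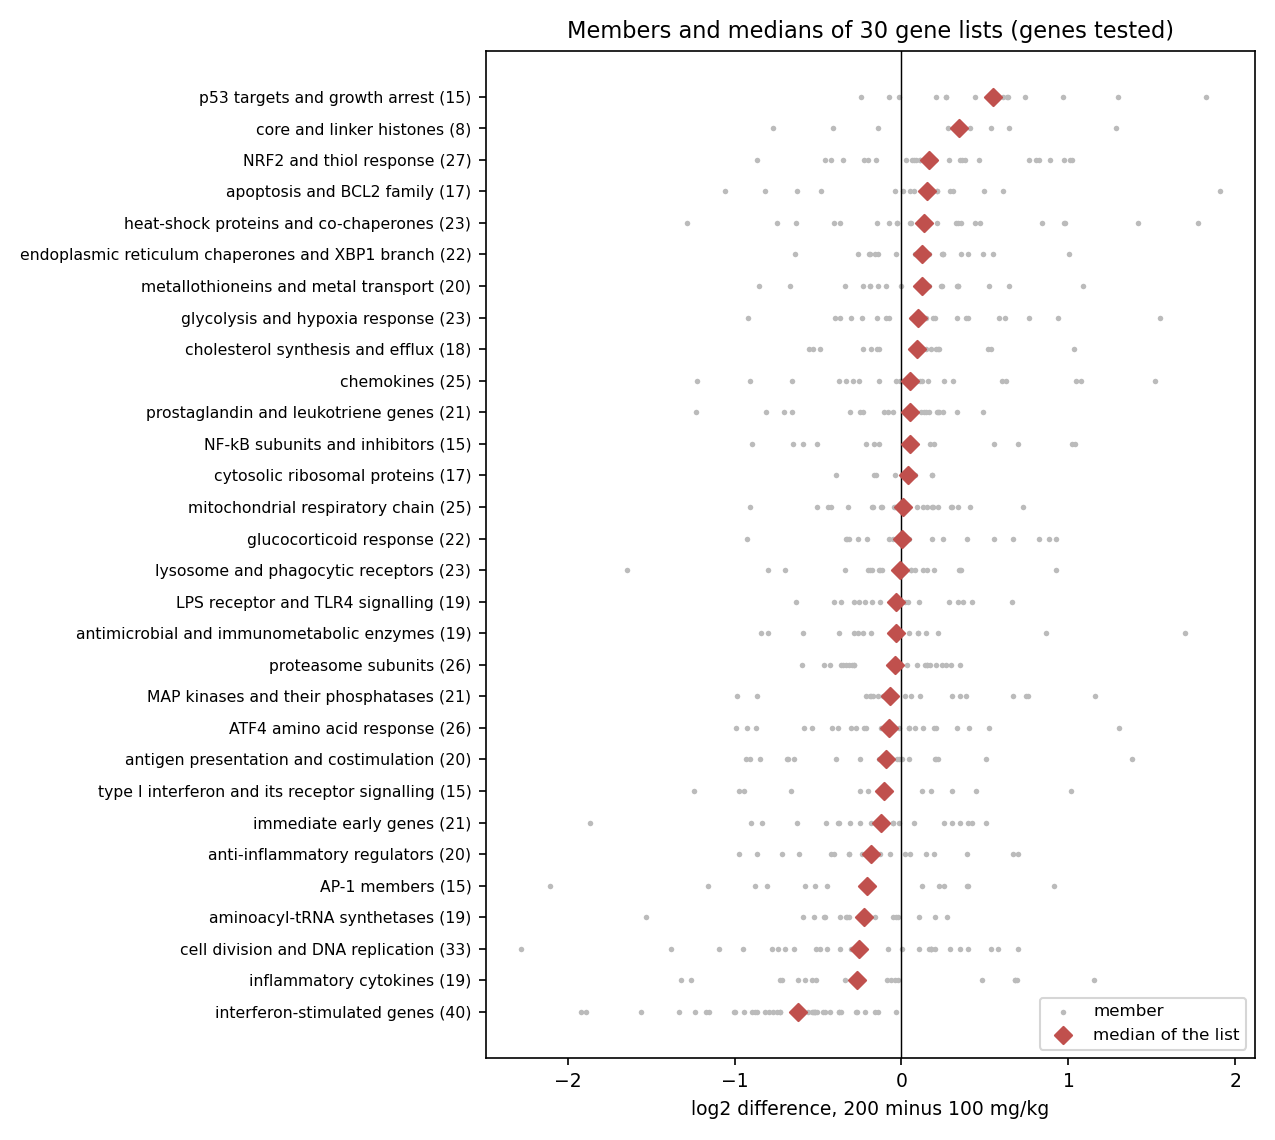
Log2 difference between 200 and 100 mg/kg of the tested members (grey points) and the median (red diamonds) of 30 gene lists, ordered by median, with the number of genes tested in parentheses. Interferon-stimulated genes have the lowest median (-0.62) and p53 targets and growth arrest the highest (0.55).

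Markers of other cell types were read beside these results. At an unadjusted p under 0.05, 5 of 15 B-cell markers were higher and 0 lower at 200 mg/kg (median 0.33), and 4 of 14 T- and NK-cell markers higher and 1 lower (median 0.32), against 9.06% and 6.34% of all genes. The median was 0.51 over 10 mesothelial and fibroblast markers (1 higher), 0.56 over 3 eosinophil markers (1 higher), 0.13 over 14 neutrophil markers and -0.24 over 7 monocyte and dendritic-cell markers (1 higher and 1 lower in each). Of 11 mast-cell markers 0 were higher and 3 lower at that level (median 0.027). The median was -0.77 over 3 dim red-cell markers (0 higher and 0 lower) and 0.042 over 9 platelet markers (0 higher and 1 lower). The summed signal of 15 B-cell markers ranged from 67129 to 90022 at 100 mg/kg and from 82218 to 93024 at 200 mg/kg. Ebf1, a transcription factor of the B lineage, rose from 576, 723 and 606 to 1504, 1186 and 1292 (1.04 ± 0.22, adjusted p = 0.0279), by 1 of its 4 probe sets, while Cd79a and Pax5 did not separate the doses. The sum over 14 T- and NK-cell markers was 6415 to 7795 against 6915 to 7908, with the CD3 chains Cd3g and Cd3e at differences of 1.03 and 1.69 (adjusted p = 0.0685 and 0.121 by limma). That over 14 neutrophil markers was 33920 to 44663 against 41538 to 44867, and that over 7 monocyte and dendritic-cell markers 3201 to 5534 against 2127 to 3933. For these 4 sums the doses overlapped. They did not for the 3 eosinophil markers, with a sum of 993 to 1466 at 100 mg/kg and 1627 to 2006 at 200 mg/kg. None of the tested members of the 10 marker lists was at 0 on any of the 6 arrays. Markers under the limit on dim probe sets had been left out beforehand, so this cannot decide which cell types were present. The part of cell composition in the differences between doses was not tested. Of 22 markers of resident peritoneal macrophages 1 passed, Fcgr1 (1.33% of all genes passed), and the median of the list was 0.0096.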

How the data were processed

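The authors deposited 1 linear intensity per probe set. Per the submitters' processing notes these came from MAS5 (version: not given in the sources used here). Each of the 14 arrays held 45101 probe sets, and the 64 controls were used for RNA integrity alone. Signals were taken as log2(signal + 16), which understates changes of dim genes, with no further scaling. The 40% with the lowest mean were left out, leaving 27022. The 5 group means were estimated from the 14 arrays together, using limma 3.58.1 under R 4.3.3 with the package data.table (version 1.17.8). Variances followed the intensity, tests were two-sided, and p-values were adjusted by Benjamini-Hochberg over every tested probe set. Promoters were searched with Python 3.11.15 and pandas 2.3.3. The fit was tested on simulated data with changes put into known probe sets. It recovered 11 of 50 changes of log2 size 1, 23 of 50 of size 2 and 35 of 50 of size 3, and called 6 unchanged probe sets. A gene that did not pass may therefore still differ. Arrays give no counts, so their number limits the precision. The platform annotation gave 34945 probe sets 1 symbol, 932 several (never named) and 9160 none, and 34741 symbols were updated through RefSeq's GRCm38.p6 tables.

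A gene stands for its probe set with the highest mean. Named were 12 response genes, the 10 largest passing increases and decreases whose arrays did not overlap and whose higher mean reached the median signal (201), and from each list the members of smallest unadjusted p, at most 4. Other genes, such as Cdkn1a, Mdm2, Isg20, Irf7, Stat2, Gbp2, Ifit1, Rsad2, Cxcl1, Cxcl2, Hspa1a, Hspa1b, Slc7a11, Srxn1, Adgre1, Csf1r, Bank1, Cd79a and Pax5, were chosen after their values were seen. The comparison, genes and lists were chosen with earlier results of these data known. Replicate numbers were not used to pair the samples in the main fit.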

Additional observations from a re-analysis of the deposited data

How the results depend on the processing

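Against 304 calls (213 higher, 91 lower), the fit on only the 6 arrays compared gave 161 (99 higher) and array weights gave 691 (469 higher, 222 lower). Median scaling gave 59 decreases, with 75.1% of calls higher against 70.1% in the main setting, and the actin 3'/5' ratio as a covariate gave 50 decreases. The Gapdh 3'/5' ratio as a covariate, chosen after seeing the data, gave 111 (84 higher, 27 lower). With single arrays left out the calls ranged from 8 to 455, the increases from 6 to 314 and the decreases from 2 to 141. Fewer samples entered these fits, and the cause was not otherwise tested. The other settings (pseudocounts 1 and 64, no filter or a 60% filter, quantile normalization, a robust variance prior) stayed within 1.5 times. The replicate number as a block gave 312 calls, 256 of them shared. After subtraction of each dose's mean, same-numbered samples of the doses correlated at -0.029, -0.051 and -0.13. Such deviations cancel out within a dose, so these values cannot decide whether same-numbered samples were paired. Signs turned for Tnf (0.052 with median scaling, 0.13 and 0.11 with the actin and Gapdh ratios, -0.096 to 0.063 with single arrays left out), Il1b (0.0051 with median scaling, -0.26 to 0.11 with single arrays left out), Cd14 (0.039 with median scaling) and Il12b (-1.01 to 0.29 with single arrays left out), none of which passed in the main setting. With the mean over a gene's probe sets they turned for Ikbkg (-0.11), Nfkbib (0.13), Mapk14 (-0.24), Map3k1 (-0.40), Psmd11 (0.035) and Cd22 (-0.37). The cause was not tested. Dim probe sets have only weak signal over background, and 3 arrays per dose limit the precision.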

Other observations

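A few genes were called through more than one probe set, which the rule of 1 probe set per gene does not use. Naming them was decided after their values were seen. Ctsc (cathepsin C, which activates granule proteases) was called by 2 of 3 probe sets, at 1.62 and 2.27 on the log2 scale, Pnisr (a serine and arginine rich nuclear protein) by 3 of 7, between 1.19 and 1.42, Nap1l1 (a histone chaperone) by 3 of 7, between 0.60 and 0.89, and Ypel5 by both of its 2, at 0.90 and 1.40, all higher at 200 mg/kg. Among the decreases, Epsti1, an interferon-induced gene that was in no list here, was called by 2 of 4 probe sets (-1.26 and -0.73), Eprs, the glutamyl-prolyl-tRNA synthetase, by 2 of 4 (-1.23 and -0.90) and Slc9a3r1, a membrane scaffold, by 2 of 3 (-0.94 and -0.70). Adjusted p-values by limma lay between 0.00273 and 0.0488 for these genes.

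For Ms4a6c and Ywhaz the probe sets were called in opposite directions. Ms4a6c had 1 of its 2 probe sets at 1.14 (adjusted p = 0.0354) and the other at -1.14 (adjusted p = 0.0181). Ywhaz, a 14-3-3 protein, had 2 probe sets at 0.64 and 0.80 and 1 at -1.07 (adjusted p = 0.0256) among 7. What sets these probe sets apart was not tested.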
